A study of Mus musculus with 10 samples.

Results

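Cytokine signalling through the JAK/STAT pathway was examined in aneurysmal mouse aorta with 10 genes taken by name from the array annotation. These were 4 feedback inhibitors (Socs1, Socs2, Socs3 and Cish), 3 Janus kinases (Jak1, Jak2 and Jak3) and 3 signal transducers (Stat3, Stat4 and Stat6), out of 35527 gene names on the array. They were represented by 17 of 55681 probes, and all 10 genes were among the 22520 names that passed the filter on dim probes. The feedback genes were set against the kinases and STATs.

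The animals were 10-week-old male C57BL/6J mice on a normal diet. PPE mice had their infrarenal aorta filled for 5 min at 100 mmHg with porcine pancreatic elastase (PPE, type I, 1.5 U per mL in saline), which damages elastic fibres and is followed by an abdominal aortic aneurysm. Sham mice received saline alone in the same way. The whole segment below the left renal artery, down to the bifurcation, was harvested in both groups on day 7. Each of 10 arrays (5 sham, 5 PPE) held 1 aorta, with 500 ng of aortic RNA labelled in red (Cy5) and a universal mouse reference RNA in green (Cy3), and dyes were not swapped. All levels below are log2 ratios of aorta over reference, which can be compared between arrays for 1 gene but not between genes.

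When a cytokine binds its receptor, the Janus kinases attached to the receptor chains phosphorylate each other, the receptor and then STAT proteins, which move to the nucleus and switch on target genes. SOCS proteins and CISH are among those targets and block the receptor or its kinases, so that they form a negative feedback loop. SOCS3 acts mainly on gp130 receptors such as that of interleukin-6, SOCS1 mainly on interferon signalling, and CISH and SOCS2 are best known as products of STAT5 downstream of growth hormone and related cytokines.

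The promoters of Socs1, Socs3 and Cish are shown because the feedback genes are classical STAT targets, and in these data 2 of the 4 rose while the other two did not pass the test. A promoter was found for 9 of the 10 genes, all but Socs2, in the RefSeq table of assembly GRCm38.p6. Shown are 280 bases, 250 before and 30 after the start of the gene, 5′ to 3′ on the strand of the gene. Capitals mark matches to the STAT-type palindrome TTCNNNGAA in Socs3 and Cish, and to the interferon-response type motif GAAANNGAAA in Socs1, which was chosen after the sequence had been seen. The windows were chr16:10785507-10785786 (minus strand) for Socs1, chr11:117969337-117969616 (minus strand) for Socs3 and chr9:107296409-107296688 (plus strand) for Cish.
Socs1: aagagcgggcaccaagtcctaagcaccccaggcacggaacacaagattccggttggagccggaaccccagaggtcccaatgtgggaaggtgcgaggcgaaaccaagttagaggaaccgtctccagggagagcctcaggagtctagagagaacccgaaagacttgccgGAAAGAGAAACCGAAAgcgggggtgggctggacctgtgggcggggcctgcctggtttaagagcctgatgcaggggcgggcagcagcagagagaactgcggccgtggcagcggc
Socs3: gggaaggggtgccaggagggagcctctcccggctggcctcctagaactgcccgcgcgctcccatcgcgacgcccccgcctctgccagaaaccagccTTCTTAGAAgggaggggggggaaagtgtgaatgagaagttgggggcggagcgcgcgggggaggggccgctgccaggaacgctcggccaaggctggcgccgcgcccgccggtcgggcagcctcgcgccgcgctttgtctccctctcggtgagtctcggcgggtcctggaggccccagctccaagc
Cish: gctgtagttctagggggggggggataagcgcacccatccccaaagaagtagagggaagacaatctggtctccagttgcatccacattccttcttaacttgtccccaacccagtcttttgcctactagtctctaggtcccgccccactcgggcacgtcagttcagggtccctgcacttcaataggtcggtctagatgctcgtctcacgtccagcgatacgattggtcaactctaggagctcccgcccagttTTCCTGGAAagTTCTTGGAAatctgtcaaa

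TTCNNNGAA, which reads the same on both strands, occurred once in the 300-base window of Socs3, starting 154 bases before the gene start. Cish held 2 matches, at 0 and 11 bases after its start. No match to it was present in the windows of the other genes that had one, and TTCNNNNGAA matched in none. Socs2 had no window and was not searched. Over all 32851 promoters of the table, 8.3% held TTCNNNGAA and 6.95% held TTCNNNNGAA. GAAANNGAAA, searched on both strands, overlapped itself at 83 and 77 bases before the Socs1 start, and lay once in 1 of the 2 windows of Stat4. It was found in 3.44% of all promoters. The matches are letters in a window and were not tested for binding.

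Of the 10 genes, 7 were higher in PPE than in sham aorta and 0 were lower (limma, Benjamini-Hochberg adjusted p under 0.01 over all 22520 names). Over all names, 23.8% were called in either direction, 13.8% were called higher and 9.96% lower. For the same 7 genes, the 5 PPE values lay entirely above the 5 sham values, a separation (in either direction) seen in 25.5% of all names. The genes that passed were Socs1, Socs3, Jak1, Jak2, Jak3, Stat3 and Stat4. With arrays centred on their median in place of loess, only Socs3 passed, and calls over all names dropped from 3116 higher and 2243 lower to 408 and 8. All 10 log2 fold changes were then larger, and that of Socs2 turned positive. Among the feedback genes, 2 of 4 passed and the median log2 fold change of the 4 was 1.26. It lies between Cish (0.44) and Socs3 (2.09), and no feedback gene had a value near it. Among the kinases and STATs, 5 of 6 passed with a median of 1.11, against a median of 0.02 over all names. The roles were described side by side, with no test between them, since genes measured on the same arrays are not replicates.

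**Figure D1:**
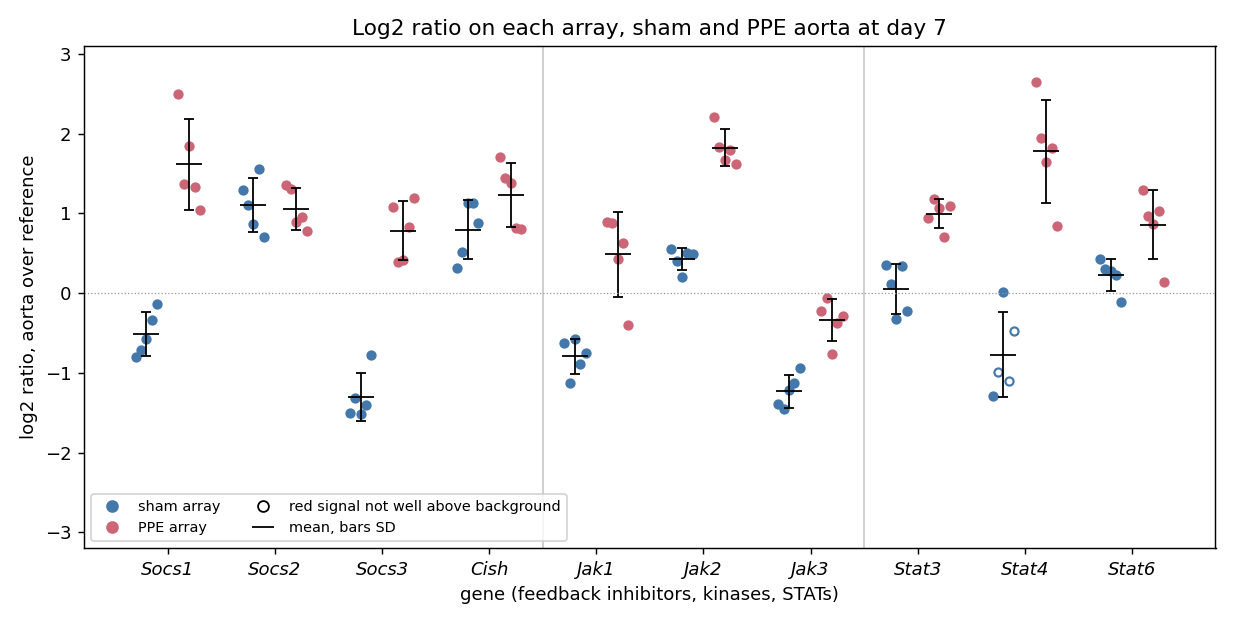
Log2 ratio of aorta over reference (y axis) for each gene (x axis) on the 5 sham arrays (blue) and the 5 PPE arrays (red), in array order from left to right; black bars give mean and SD, and open points mark a red signal not well above background. Socs1, Socs3, Jak1, Jak2, Jak3, Stat3 and Stat4 show no overlap between groups, whereas Socs2, Cish and Stat6 overlap.

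Smooth muscle genes such as Acta2 lay above the reference in sham tissue, and so did adipocyte genes. Levels of cell type markers differed between groups. Of 10 smooth muscle markers 8 were called lower in PPE, with a mean log2 ratio over the list of 3.39 to 4.63 in sham and 1.75 to 2.95 in PPE. Of 12 macrophage markers 9 were called higher (1.17 to 1.63 in sham, 3.19 to 4.36 in PPE), as were 8 of 9 neutrophil (0.13 to 0.33, then 2.41 to 3.95), 6 of 10 T cell (-1.10 to 0.05, then 0.69 to 1.67) and 5 of 7 NK cell markers (0.15 to 0.71, then 1.70 to 3.63). Of 8 fibroblast markers 4 were called higher (median log2 fold change 0.92), and of 8 adipocyte markers 3 were called lower (median -0.83), with a mean over the list of 4.65 to 5.81 in sham and 3.45 to 4.91 in PPE. Of the called markers, Mmp8 and Ngp (neutrophil) and Klrk1 (NK cell) passed the filter on dim probes through their PPE arrays alone. Endothelial (0 of 8), B cell (0 of 6) and skeletal muscle markers (0 of 5) gave no call. More cells of a type and more RNA per cell cannot be told apart in this bulk tissue, for any value below, and the part of cell content in the results was not tested.

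Socs3 and Socs1 rose about equally and more than 4-fold. Socs3 (probe at chr11:117827480-117827539, mm9, minus strand) had log2 ratios of -1.51, -1.31, -1.52, -1.40 and -0.78 in sham 1 to 5 and of 1.08, 0.39, 0.42, 0.83 and 1.19 in PPE 1 to 5. Every PPE array was above the reference and every sham array below it, and sham 5 was nearest to the PPE group. PPE exceeded sham by 2.09 on the log2 scale (SE 0.20, 95% confidence interval 1.65 to 2.52, n = 5 and 5), or 4.24-fold, with a limma adjusted p of 1.23e-05. Leaving out sham 5 gave 2.22.

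Socs1 (chr16:10783951-10784010, mm9, minus strand) lay at -0.80, -0.71, -0.58, -0.34 and -0.13 in the sham arrays and at 2.50, 1.37, 1.84, 1.34 and 1.04 in the PPE arrays. The groups were 1.17 apart at their nearest points, with PPE 1 highest. The difference was 2.13 on the log2 scale (SE 0.25, interval 1.58 to 2.68), or 4.37-fold (limma adjusted p = 5.98e-05). An exact two-sided permutation test of either gene gave p = 0.00794, the smallest that all splits of 10 arrays into groups of 5 allow.

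Cish did not pass the test. Its probe (chr9:107204196-107204255, mm9, plus strand) gave 0.32, 0.51, 1.13, 1.13 and 0.88 in sham and 1.71, 1.45, 1.38, 0.82 and 0.80 in PPE. The 3 highest values were PPE arrays, but PPE 4 and PPE 5 lay within the sham range. The groups differed by 0.44 on the log2 scale (SE 0.22) at a limma adjusted p of 0.152, and the interval of -0.05 to 0.92 left out changes as large as those of Socs1 and Socs3.

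Socs2, the other gene best known as a STAT5 target, showed the smallest difference of the 10 genes. Its brightest probe (chr10:94875066-94875125, mm9, minus strand) read 1.29, 1.10, 0.87, 1.56 and 0.71 in sham and 1.36, 1.30, 0.89, 0.96 and 0.77 in PPE. The groups overlapped almost completely. PPE minus sham was -0.05 on the log2 scale (SE 0.18, interval -0.44 to 0.34), at a limma adjusted p of 0.867. This probe is printed as 10 spots per array, whose SD within an array had a median of 0.10 and reached 0.36 on PPE 5. The SD between sham arrays was 0.34. A further pair of Socs2 probes within 402 bases gave 0.05 and 0.01. Another probe that carries the Socs2 name, 27061 bases away and designed on a cDNA clone, had a log2 fold change of -0.49 (limma adjusted p = 0.0560).

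The rest of the SOCS family stayed close to 0, with none of Socs4, Socs5, Socs6 and Socs7 called and a median log2 fold change of -0.04. Their values ran from -0.12 in Socs7 to 0.15 in Socs6.

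All 3 Janus kinases of the set rose. Jak2, which serves gp130, interferon-gamma, growth hormone and interleukin-12 receptors, read 0.55, 0.40, 0.20, 0.50 and 0.49 in sham and 2.20, 1.84, 1.67, 1.80 and 1.62 in PPE (chr19:29387487-29387546, mm9, plus strand). Both groups were tight and 1.07 apart. Its log2 fold change of 1.40 (SE 0.13, 2.63-fold) had the smallest limma adjusted p of the 10 genes, 9.80e-06.

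Jak1, used by gp130, interferon and common gamma chain receptors, lay at -0.62, -1.13, -0.58, -0.88 and -0.75 in sham and at 0.90, 0.88, 0.42, 0.63 and -0.41 in PPE (chr4:100825094-100825153, mm9, minus strand). The value of PPE 5 stayed close to the sham group, so that only 0.17 separated the groups. Jak1 was 2.42-fold higher in PPE (log2 1.28, SE 0.23), with a limma adjusted p of 0.00120, and the log2 value was 1.50 without PPE 5.

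Jak3, which works with the common gamma chain and is largely restricted to blood cells, gave -1.40, -1.46, -1.22, -1.13 and -0.94 in sham and -0.22, -0.06, -0.77, -0.38 and -0.28 in PPE (chr8:74214085-74214144, mm9, plus strand). PPE 3 was the lowest of its group, 0.18 above the highest sham array. This was a rise of 1.85-fold (log2 0.89, SE 0.15) at a limma adjusted p of 0.000713, and a second probe 3284 bases away gave 0.98 (limma adjusted p = 6.19e-05). The remaining kinase of the family, Tyk2, had 0.48 (SE 0.13) and missed the threshold with a limma adjusted p of 0.0128, although its groups did not overlap.

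The STATs differed among themselves. Stat4, the transducer of interleukin-12 in T and NK cells, had the largest log2 fold change of the 10 genes. It read -1.29, -0.99, 0.01, -1.10 and -0.48 in sham and 2.64, 1.95, 1.64, 1.81 and 0.84 in PPE (chr1:52163802-52163861, mm9, plus strand). The groups did not overlap, but the red signal was well above background on only 2 of the 5 sham arrays, against 5 of 5 PPE arrays. The fitted rise was 5.85-fold (log2 2.55, SE 0.32) with a limma adjusted p of 0.000103. The log2 value changed with the processing. It was 2.79 without background subtraction, 2.98 at a normexp offset of 16 and 3.73 from the log ratio of the scanner, which also differs in normalization. The part of the dim sham signal in this was not tested.

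Sham 3, the highest sham array for Stat4, was also the highest for the leukocyte phosphatase Ptprc (CD45) at -0.72, with the other sham arrays between -2.11 and -1.59. For the T cell kinase Lck it stood at -0.60 against -2.68 to -2.02. Among the PPE arrays, PPE 1 had the highest Stat4 and also the highest Ptprc (2.12), Ifng (4.55) and NK cell receptor Ncr1 (2.74). PPE 5 had the lowest Stat4 and the lowest Ptprc (0.75), Ifng (2.02) and Ncr1 (0.34). T cell genes did not keep this order. Lck had its highest PPE value on PPE 2 (1.23), Cd3e on PPE 5 (0.22), and the mean over the T cell list was highest on PPE 2 (1.67) and lowest on PPE 4 (0.69). In sham, Ifng and Ncr1 were too dim to be set against Stat4. Ifng was well above background on 1 sham array and Ncr1 on 0, so that Ncr1 passed the filter through its PPE arrays alone. On sham 3 both read 0.02, not well above background. The mean over the NK cell list was 0.45 on sham 3, below the 0.71 of sham 4. These genes were set beside Stat4 after their values were seen.

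Stat3, the transducer of gp130 cytokines and interleukin-10, read 0.35, 0.11, -0.32, 0.34 and -0.23 in sham and 0.94, 1.19, 1.07, 0.71 and 1.09 in PPE (chr11:100749598-100749657, mm9, minus strand). The lowest PPE array stood 0.35 above the highest sham array. Stat3 was 1.93-fold higher in PPE (log2 0.95, SE 0.16), with a limma adjusted p of 0.000707. Its 10 spots per array had a median SD of 0.09. A second, dimmer probe 10348 bases away gave 0.35 and did not pass (limma adjusted p = 0.0953).

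Stat6, the transducer of interleukin-4 and interleukin-13, read 0.43, 0.30, 0.27, 0.22 and -0.11 in sham and 1.29, 0.97, 0.87, 1.02 and 0.14 in PPE (chr10:127097689-127097748, mm9, plus strand). PPE 1 to 4 lay above all sham arrays and PPE 5 below 4 of them. The log2 fold change of 0.63 (SE 0.20, interval 0.21 to 1.06) missed the threshold with a limma adjusted p of 0.0251. Without PPE 5 it was 0.81 and passed (limma adjusted p = 0.000780). Of its other probes, 1 gave -0.16 (limma adjusted p = 0.432) and was well above background on 2 PPE arrays. The other gave 0.67 (limma adjusted p = 0.401) with a sham SD of 1.47, set by a value of -3.34 on sham 3.

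**Figure D2:**
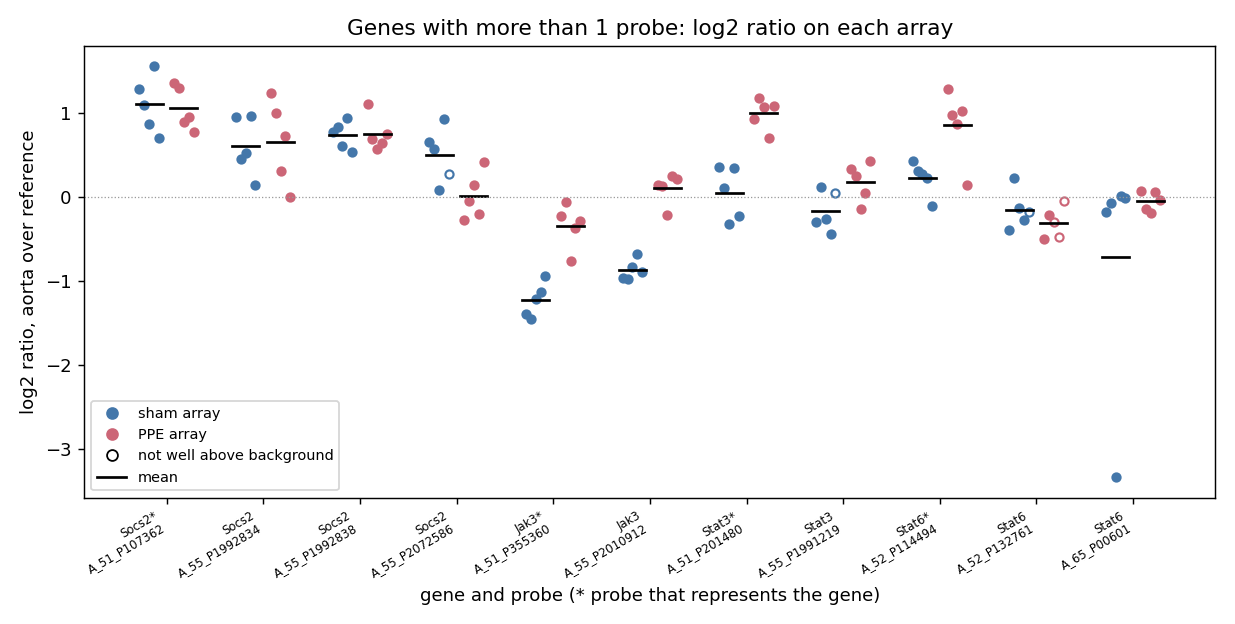
Log2 ratio of aorta over reference (y axis) for each probe of the 4 genes with more than 1 probe (x axis), on 5 sham (blue) and 5 PPE arrays (red); black lines are group means, open points mark a red signal not well above background, and the asterisk marks the probe that represents the gene. Both Jak3 probes separate the groups, the second Stat3 probe and all Socs2 probes do not, and 1 sham value of -3.34 lies apart on a Stat6 probe.

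Stat2, which carries type I interferon signals and was not among the 10 genes, rose by log2 2.25 (SE 0.17, limma adjusted p = 3.20e-06). Stat5a (0.30) and Stat5b (0.01) did not pass.

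**Figure D3:**
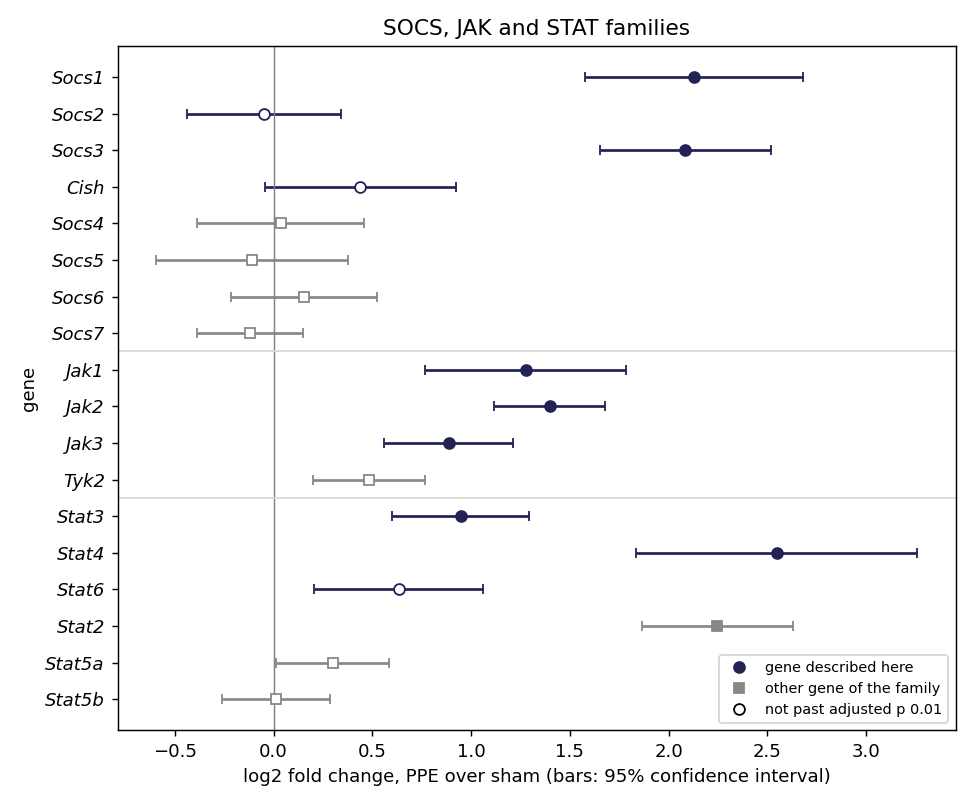
Log2 fold change of PPE over sham (x axis) with its 95% confidence interval for the SOCS genes, the Janus kinases and the STATs (y axis); circles are the 10 genes, squares other genes of the families, and filled symbols passed a limma adjusted p of 0.01. Socs1 (2.13) and Socs3 (2.09) stand apart from the other SOCS genes, and Stat4 (2.55) and Stat2 (2.25) lead the STATs shown.

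Position within the PPE group was shared by many of the 10 genes. PPE 1 had the highest value of its group for 7 genes (Cish, Jak1, Jak2, Socs1, Socs2, Stat4 and Stat6), and PPE 5 had the lowest for the same 7 genes. Socs3 differed in the place of PPE 5, which had its highest value (1.19), followed by PPE 1 (1.08), with PPE 2 lowest (0.39). PPE 1 had the largest share of red spots well above background of all arrays (65.8%) and PPE 5 the smallest of the PPE arrays (45.8%), and the part of signal strength in this order was not tested. Without the dimmest array of each group, sham 5 and PPE 5, 8 of the 10 genes were called higher, the added gene being Stat6.

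The mean over the 4 feedback genes, each taken relative to its sham mean, was 1.64, 1.11, 1.11, 0.96 and 0.93 in PPE 1 to 5. For the 6 kinases and STATs it was 1.64, 1.47, 1.16, 1.28 and 0.85. Sham arrays ranged from -0.20 to 0.22 and from -0.11 to 0.08. PPE 1 was highest and PPE 5 lowest for both, and the means of both roles covered much the same range. The feedback mean joins log2 fold changes of 2.13 (Socs1) and 2.09 (Socs3) with 0.44 (Cish) and -0.05 (Socs2), and describes none of these genes.

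The profiles nearest to Socs3 were taken as the 3 names with the smallest root mean square difference of centred log2 ratios over the 10 arrays. These were Tcirg1 (0.17), a subunit of the proton pump of osteoclasts and macrophages, A530023O14Rik (0.18), now named Trim30b, and Prcp (0.18), a lysosomal carboxypeptidase. Their log2 fold changes were 2.18, 2.05 and 1.96. Values near that of Socs3 follow from the choice, since the distance includes the difference between groups. The 3 names nearest to Cish (differences of 0.21 to 0.22) were long non-coding RNA regions named by position. None of them was called, as the same choice favours.

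Further genes of the pathway were taken from 9 lists with 81 genes, of which 63 were tested, 29 were called higher and 2 lower, with a median log2 fold change of 0.63. The counts can be read against 13.8% and 9.96% over all names. Whether a list differed from other names was not tested.

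Among gp130 cytokines, which signal through Jak1, Jak2 and Stat3, 2 of 7 were called higher and 1 lower. Il6 read -2.82, -1.72, -1.49, -2.68 and -1.13 in sham, never well above background, and 2.19, 1.94, 2.21, 3.62 and 1.83 in PPE. On red channel values, PPE stood 15.98-fold above sham, with no sham signal set below the dimmest detected signal of its array. This is an estimate and not a lower bound. The fitted log2 fold change was 4.33 (limma adjusted p = 1.03e-05). Il6 passed the filter on dim probes through its PPE arrays alone, so this p-value is only descriptive. The highest PPE array for Il6 was PPE 4, whereas Socs3 peaked on PPE 5. Osm, well above background on only 1 sham array, had a fitted rise of log2 1.15 (limma adjusted p = 0.00140), and Ctf1, cardiotrophin, fell by 0.82 (limma adjusted p = 0.000509). Lif did not pass the filter on dim probes.

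Of 7 gp130 family receptors, 3 were called higher and 0 lower. Osmr rose by 1.36, Il27ra by 1.23 and Il6ra by 1.22 on the log2 scale. The shared chain Il6st had 0.48 and missed the threshold (limma adjusted p = 0.0119), with groups that did not overlap.

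Receptors of the common gamma chain, interleukin-4 and interleukin-12 families, many of which use Jak3, Stat6 or Stat4, were called higher in 9 of 11 cases. Their median log2 fold change was 2.40. Il2rb (3.21), Il7r (3.16), Il21r (3.08) and the common gamma chain Il2rg itself (2.76) led the list. Il15ra (0.12) and Il12rb2 (0.00) did not pass. Of the 11 matching cytokines only 4 passed the filter on dim probes, and 1 of these, Il12b, was called. The red channel estimate, taken as for Il6, was 1.98-fold higher in PPE. Its signal was well above background on no sham array, so that it passed the filter through its PPE arrays alone.

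All 7 tested genes of the interferon and interleukin-10 families were called higher, with a median of 1.39. Ifng (2.82, well above background on 1 sham array), Il10ra (2.77), Il10rb (1.40) and Ifnar1 (1.39) had the largest changes. Growth hormone type and haematopoietic receptors and ligands, several of which use Jak2 and Stat5, held 1 call among 9 tested genes, Csf2rb at 3.16, and a median of 0.07. The growth hormone receptor Ghr had -0.59 and did not pass (limma adjusted p = 0.0714).

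Inhibitors outside the SOCS family were divided. Of 9 PIAS and phosphatase genes, 4 were called higher and 1 lower. Ptpn6 (SHP-1, 3.42) and Ptprc (CD45, 3.07), phosphatases of blood cells, and Ptpn1 (1.45) rose, whereas Ptpn11 (SHP-2) fell by 0.76 on the log2 scale. None of the 4 PIAS genes was called.

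**Figure D4:**
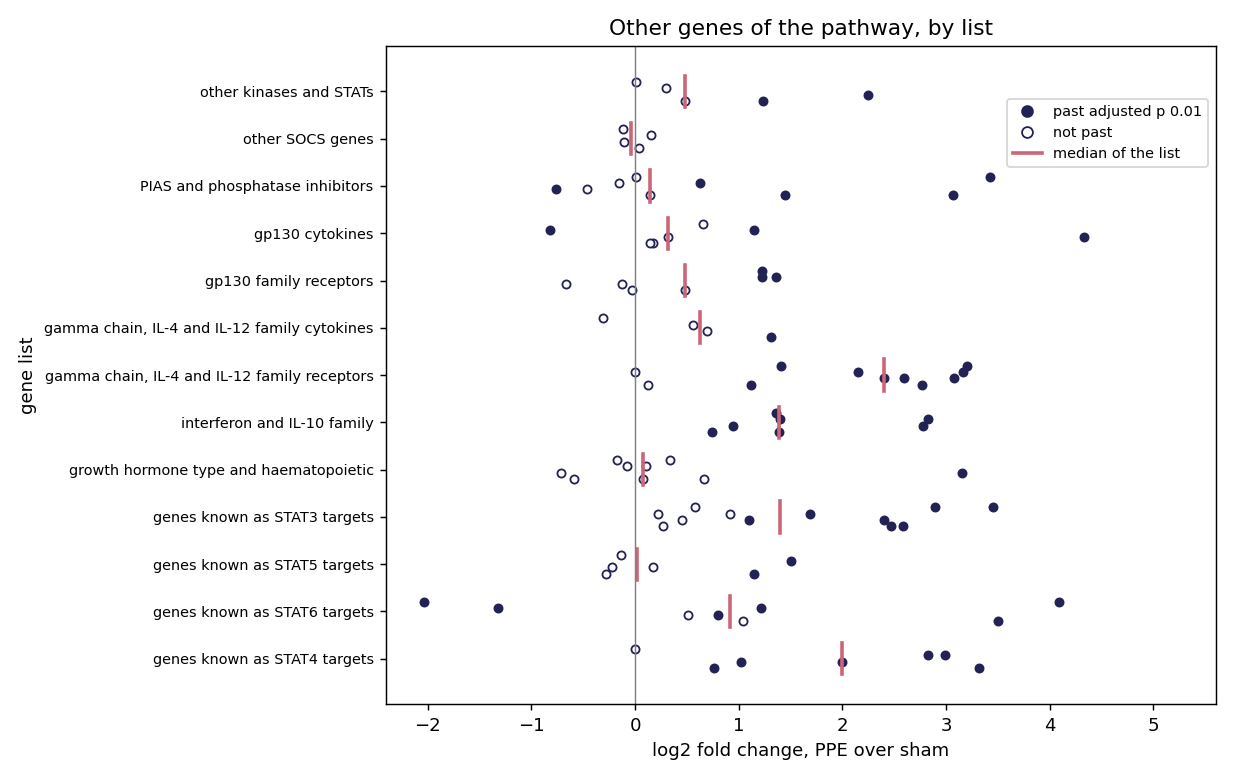
Log2 fold change of PPE over sham (x axis) for each tested gene of 9 pathway lists and 4 lists of known STAT targets (y axis); filled points passed a limma adjusted p of 0.01 and the red bars are list medians. Receptors of the gamma chain families have a median of 2.40 and the STAT4 target list 1.99, whereas the other SOCS genes (-0.04) and the STAT5 target list (0.02) lie near 0.

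Genes known as targets of the STATs were described in the same way. Of 12 STAT3 targets 7 were called higher and 0 lower, with a median of 1.40, led by Timp1 (3.46), an inhibitor of matrix metalloproteinases, Lcn2 (2.89), Bcl3 (2.59) and Il1rn (fitted value 2.47, not well above background on any sham array). Of 7 STAT4 targets 6 were called higher, with Il18r1 (3.32), Tbx21 (2.99), Ifng (2.82) and Gzmb (1.99) leading. STAT5 targets gave 2 calls of 6 and a median of 0.02, and the called genes were Igf1 (1.50) and Osm (1.15, dim in sham as above). STAT6 targets went both ways. Chi3l3 (4.09) and Arg1 (3.50) rose, and Retnla and Ccl24 fell by 2.03 and 1.32 on the log2 scale, among 4 called higher and 2 lower of 8. Il18r1, Tbx21 and Arg1, like Il7r above, were well above background on 3 of the 5 sham arrays. These lists share Osm, Il4ra, Ifng and Il12rb2 with the lists of cytokines and receptors, and Mrc1 with the macrophage markers.

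**Figure D5:**
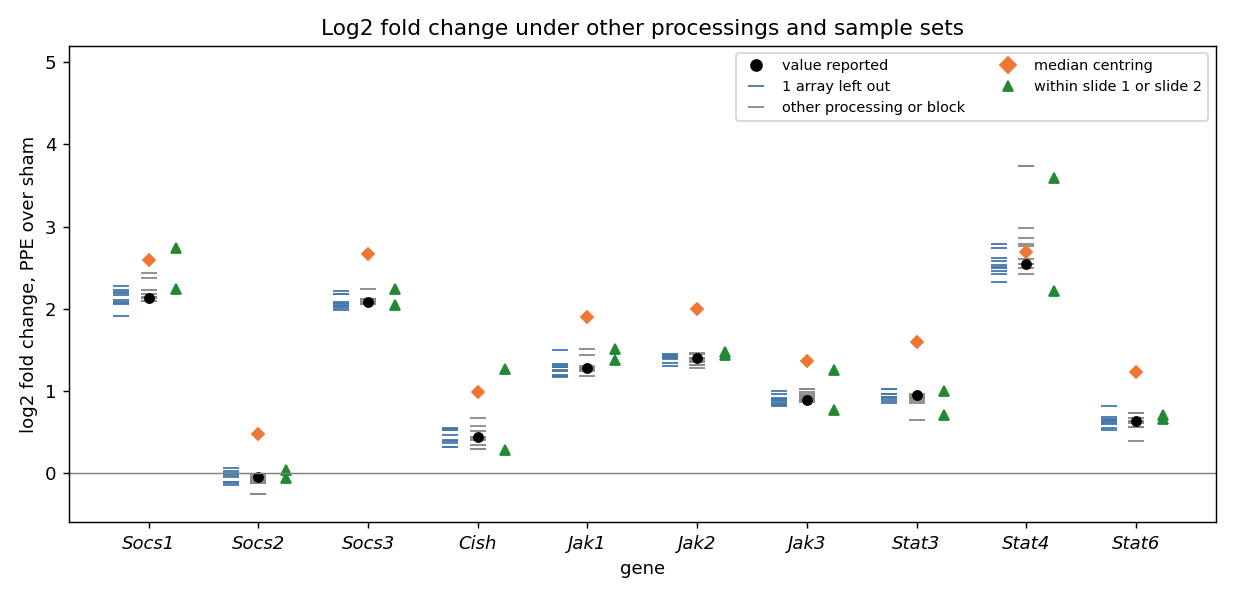
Log2 fold change of PPE over sham (y axis) for the 10 genes (x axis) under the reported processing (black), with 1 array left out (blue), under other processings or blocks (grey), with median centring in place of loess (orange) and within slide 1 or slide 2 (green triangles). Values stay above 0 for all genes but Socs2, and median centring raises each of them.

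Arrays lay on 5 slides. Slide 1 (sham 1, PPE 1 and PPE 2) and slide 2 (sham 2, sham 3, PPE 3 and PPE 4) held both groups, and the other slides 1 array each. Slide 1 was scanned on another day than all other slides, so what is particular to it cannot be told apart from scan day. With scan day as a fixed block, the same 7 genes were called. Within slide 1 and slide 2, the differences were 2.24 and 2.04 for Socs3, 2.73 and 2.24 for Socs1, and 3.59 and 2.22 for Stat4. The kinases kept their direction too, at 1.51 and 1.38 for Jak1, 1.47 and 1.43 for Jak2, and 1.25 and 0.76 for Jak3. Cish differed between the slides, with 1.26 within slide 1 and 0.28 within slide 2. With slide as a fixed block, the 7 called genes remained called and Stat6 joined them (0.67, limma adjusted p = 0.00348).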

How the data were processed

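The authors hybridized aortic RNA against a universal reference on 2-colour Agilent arrays, read the scans with Agilent Feature Extraction 10.7.3.1 and left out arrays of poor hybridization. They also dropped outliers after hierarchical clustering and principal components analysis of the array data. Arrays may thus have been kept partly for how they grouped, and the effect of this on group separation was not tested. Per the file headers, the 62976 spots of an array carry signal and background intensity. In the deposited files, LogRatio is log10 of red over green. The authors' series matrix holds log2 values, equal on 100% of spots (within 1e-04) to log2 of processed red over processed green, with array medians from -0.16 to 0.12. Red signal was well above background on 37.6% to 65.8% of spots, which limits what dim probes can show, and no spot was saturated.

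Mean signals were corrected with normexp (offset 50) and loess in limma 3.58.1 (R 4.3.3), without outlier spots (176 to 331 per array), and spots of 1 probe were averaged. Probes with red well above background on fewer than 5 of 10 arrays were not tested. Some genes, such as Il6, Il12b, Il1rn and the markers Mmp8, Ngp and Klrk1, passed this filter through the PPE arrays alone. Their calls, which the counts include, are not independent of the filter. The brightest tested probe represents a gene. Groups came from the sample titles, and 5 sham and 5 PPE arrays, each of 1 mouse, were compared with limma (two-sided, no pairing), and the threshold on the adjusted p was 0.01, as the study used a false discovery rate below 1%. SAM, the test of the study, was not rerun. Same-numbered arrays did not consistently deviate together and were not paired. Probe positions are on mm9, with no exon annotation used. The members and gene lists were chosen with earlier results of these data known. Named are the 10 genes with all their probes, up to 4 called genes per list with the largest change, and the 3 profiles nearest to Socs3 and to Cish. Il6st, Tyk2, Ghr, Lif, Il15ra, Il12rb2, uncalled STAT and SOCS genes, and the genes set beside Stat4 were named after their values were seen. One gene of these families is not reported here. Alternatives covered background, normalization, filter, probe choice, blocks and left-out arrays.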

Additional observations from a re-analysis of the deposited data

Results flagged for a closer look

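Of 20 sets of values checked (10 genes in 2 groups), 1 held an array far from the others. Socs3 on sham 5 had a log2 ratio of -0.78, and the next sham array had -1.31. The gap was 0.723 of the range of the group, above the critical value of 0.71 for 5 arrays. Chance marks about 5% of such groups. Sham 5 also had the smallest share of red spots well above background (37.6%). The call of Socs3 did not depend on it, with a log2 fold change of 2.22 (limma adjusted p = 1.02e-05) without sham 5.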

How the results depend on the processing

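Under the alternatives that kept loess or used the scanner's own normalization, none of the 7 called genes lost its call on its brightest probe, except that Stat4 was not tested where signal on all arrays was required. With median centring in place of loess, the median of all names moved to 0.41 and calls over all names went from 3116 higher and 2243 lower to 408 and 8. Then 1 of the 10 genes was called higher, Socs3 (2.67, limma adjusted p = 0.00882). Socs1 had 2.60, Jak1 1.90, Jak2 1.99, Jak3 1.37, Stat3 1.59 and Stat4 2.69, none past the threshold, Socs2 turned to 0.47, and the medians rose to 1.79 for feedback genes and 1.75 for kinases and STATs. The cause was not tested. Stat6 passed with slide as a fixed (0.67) or random block (0.63), without PPE 5 (0.81) and without the dimmest array of each group (0.73, chosen after seeing the data). Same-numbered arrays did not pair consistently (correlations of deviations from -0.30 to 0.52). Only sham 5 was closest to the PPE array of its own number. With the replicate number as a block, 8 genes were called, Stat6 (0.63, limma adjusted p = 0.00485) being added, and no other call changed. Within slide 1, Socs1 (2.73), Cish (1.26), Jak3 (1.25), Stat4 (3.59) and the medians (1.75 and 1.36) moved by more than the spread of arrays. With signal required on all arrays, the median of kinases and STATs became 0.95. With other probes Stat3 had 0.35, Socs2 0.050 and 0.015, and Stat6 -0.16.

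With 1 array left out at a time, 7 to 8 genes were called higher and 0 lower, and the medians ran from 1.11 to 1.34 (feedback) and from 1.04 to 1.19 (kinases and STATs). Log2 fold changes ran from 1.91 to 2.27 for Socs1, -0.15 to 0.065 for Socs2, 1.98 to 2.22 for Socs3, 0.32 to 0.55 for Cish, 1.17 to 1.50 for Jak1, 1.30 to 1.45 for Jak2, 0.82 to 0.99 for Jak3, 0.85 to 1.02 for Stat3, 2.33 to 2.78 for Stat4 and 0.53 to 0.81 for Stat6. Socs2 turned positive without sham 4 (0.065) and without PPE 5 (0.023).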
